A study of Mus musculus with 3 samples.

Results

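The Rab GTPase genes of the mouse were examined as translated messages of the dentate gyrus, the input region of the hippocampus. They were taken as every gene symbol in the count files made of Rab, a number and at most 1 letter from a to d, which gave 58 of 32531 genes with a row. Rab-like genes and Rab effectors do not match that pattern and were read separately. Ribosome-bound RNA came from adult mice of the C57BL/6J strain carrying the Penk-EGFP/Rpl10a transgene (line NIDA186), in which the large-subunit protein Rpl10a carries a green fluorescent tag under regulatory DNA of Penk, the gene of the enkephalin precursor. Tagged polysomes were pulled down from dissected tissue (translating ribosome affinity purification), and 3 such libraries, replicates 1 to 3, form the only group. All animals carried the transgene and none was treated. Neither the unbound fraction nor whole tissue was analysed here. Genes were therefore compared with each other within libraries, and no enrichment in tagged cells could be computed. Whether the replicates are separate animals is not in the labels, so the spread between these 3 libraries may be technical. The p-values given by limma rest on that spread, moderated across genes, and not on the spread of each gene alone.

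Rab proteins are small GTPases that mark the membranes of the secretory and endocytic pathways. Exchange factors load them with GTP on a given membrane, the GTP-bound form recruits effectors that move, tether or fuse vesicles, GTPase-activating proteins switch it off, and a GDP dissociation inhibitor carries the inactive form through the cytosol. In neurons the family serves the release of transmitter and peptides, the turnover of receptors between endosomes and the surface, the transport of membrane from the Golgi along axons and dendrites, and autophagy. The members were sorted by their best-known compartment into 8 lists.

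Gene totals were 5348761, 19195559 and 11059982 counts in replicates 1 to 3. Replicate 1 was the shallowest and held the fewest detected members: 34 Rab genes had at least 10 counts there, against 49 and 44 in replicates 2 and 3. With all libraries thinned to the total of replicate 1 the numbers were 34, 48 and 43, so the gap was nearly as large at equal depth. Replicate 1 also had the lowest share of listed reads on genes, 16.3% against 38.2 and 21.1% in replicates 2 and 3. Its share on no annotated feature was the highest, 50.7% against 35.4 and 40.5%. Summed markers of dentate granule cells lay between 1030 and 2010 CPM (reads of a gene relative to the scaled library size), most of it from Prox1, Stxbp6 and Rfx3. Of the 10 markers, 9 had at least 1 count in every library, and C1ql3 was at 0 in replicate 1. Calb1 and Tdo2 had only 2 and 1 counts in replicate 1, and Plk5 had 3 in replicate 3. Neuronal markers summed to 8580 to 14800 CPM, astrocyte markers to 1390 to 3270, oligodendrocyte markers to 762 to 1230 and endothelial and mural markers to 424 to 1020. Snap25 alone gave 5316 to 10870 CPM of the neuronal sum, and Rgs5 67.2 to 747 CPM of the endothelial and mural sum. Slc1a2 alone gave 1228 to 2874 CPM of the astrocyte sum, while the astrocyte marker Gja1 was at 0 in replicate 1. Microglial markers summed to at most 23.9 CPM, with 7 of 8 at 0 in at least 1 library. In such bulk material, fewer cells of a type and less RNA per cell cannot be told apart.

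The most abundant Rab messages were those of the Golgi and late endosome members Rab2a, Rab7, Rab6b and Rab6a, followed by the synaptic pair Rab3c and Rab3a. The level of a gene is its log2 CPM per kb of exon minus that of the median tested gene of the same library, so that 0 is the median gene. A filter on low counts kept 37 of the 58 members, all of which could be tested. By limma's TREAT test for a level more than 2-fold from the median gene, 9 of 37 members lay above it, where 10.5% of all 8141 tested genes did. None lay below by limma's TREAT test, where 4.20% of all tested genes did, and without adjustment 3 of 37 members and 762 of 8141 genes had p under 0.05 on that side. The median level over the tested members was 0.60 and over all tested genes -0.14, on the log2 scale. Members lost to the filter are scarce by construction, so these counts and medians describe only the detected part of the family. Without replicate 1, 15 of 44 tested members were above it, where 14.8% of all tested genes did.

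**Figure D1:**
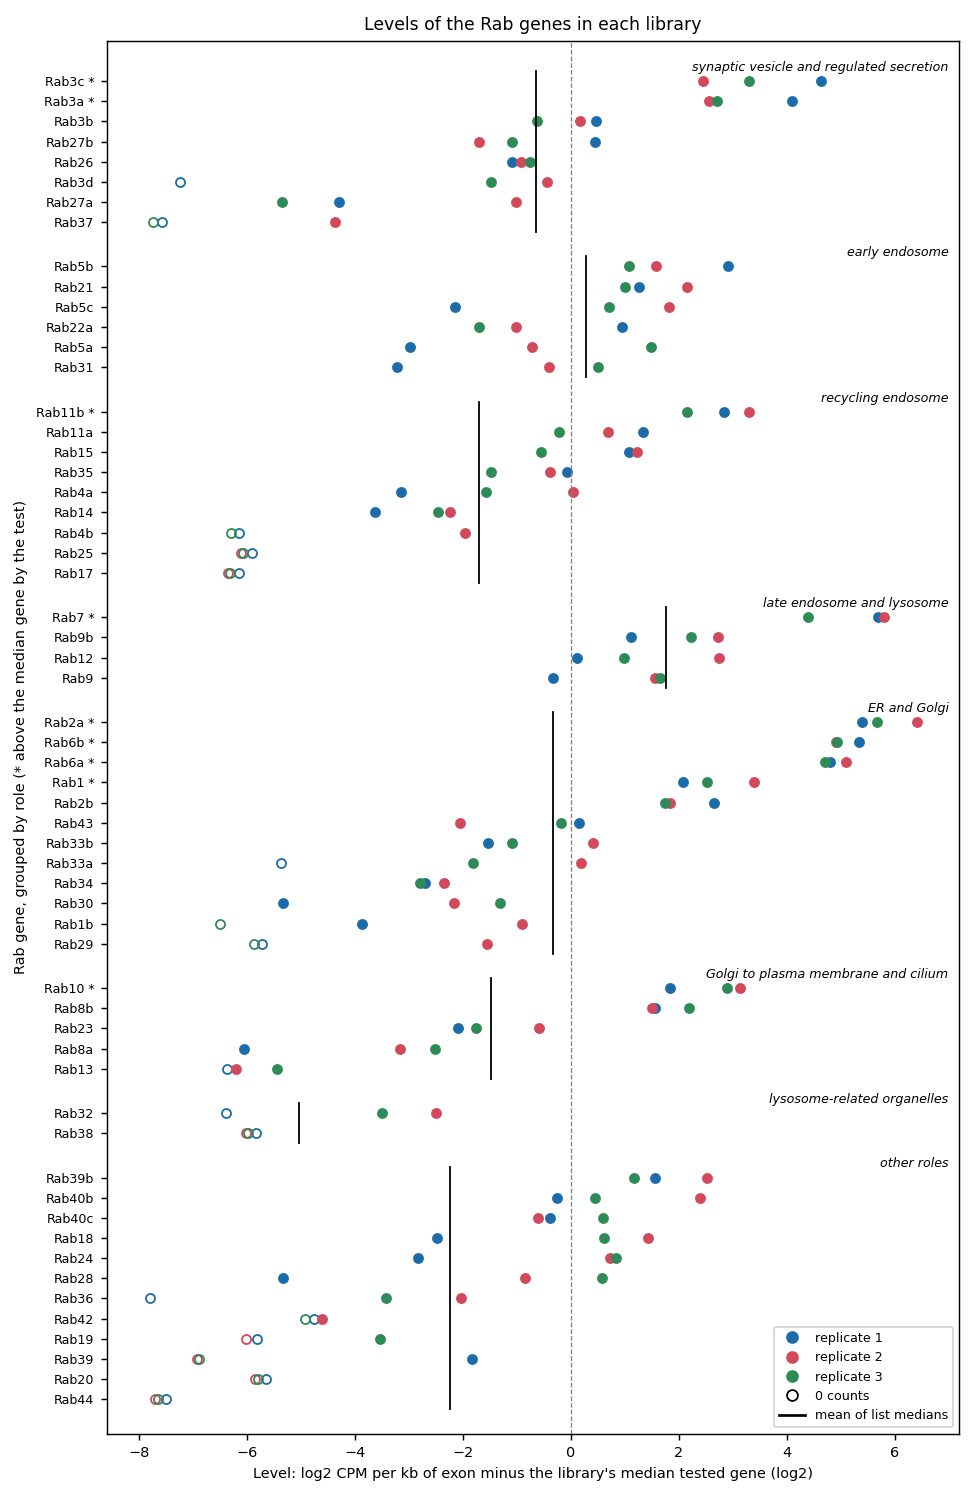
Level of each of the 58 Rab genes (log2 CPM per kb of exon minus the library's median tested gene) in replicates 1 to 3, by role list. Open points are 0 counts, whose position depends on the prior count, black lines are the mean over libraries of each list's median, and asterisks mark the 9 genes above the median gene by limma's TREAT test. Rab2a, Rab7, Rab6b and Rab6a lie above 4 on this scale in every library.

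Among the 8 genes of the synaptic vesicle and regulated secretion list, Rab3c and Rab3a were above the median gene. Rab3 proteins sit on synaptic vesicles and bind the active zone protein RIM and the vesicle protein rabphilin, and Rab3a is the best-studied of them in transmitter release. Rab3a was read at 95.3, 37.3 and 40.2 CPM per kb in replicates 1 to 3 (57.6 ± 32.7, SD, n = 3). Its level was 3.12 (SE 0.49, adjusted p = 0.00144 by limma), higher than the median gene in 3 of 3 libraries. Rab3c was read at 138, 34.96 and 60.7 CPM per kb (77.9 ± 53.6), a level of 3.46 (SE 0.46, adjusted p = 0.000159 by limma). Both genes were highest in replicate 1, and in replicate 2 they were almost equal. Rab3b lay at the median gene, with 7.63, 7.11 and 3.96 CPM per kb. Rab3d, known mainly from exocrine granules, had 0, 447 and 106 counts and was not tested.

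Most of the Rab3 message was divided between Rab3c and Rab3a, and the leader depended on the length scale. Of the summed CPM per kb of the 4 Rab3 genes, Rab3c held 57.3, 41.6 and 56.8% in replicates 1 to 3 (51.9 ± 8.90%, SD, n = 3), and Rab3a 39.6, 44.4 and 37.5% (40.5 ± 3.53%). Rab3a minus Rab3c on the log2 scale per kb was -0.53, 0.10 and -0.59, a mean of -0.34 with SD 0.38, so their order did not hold in every library. Without division by length the mean difference was -2.78 and Rab3c held 83.6%, since its exons cover 12049 bases (chr13:110054187-110280996, minus strand) against 2226 bases for Rab3a (chr8:70754679-70758677, plus strand; GENCODE vM21 on GRCm38). Rab3a was also no longer above the median gene without division by length (1.93, adjusted p = 0.134 by limma). Rab3b held between 3.17 and 8.46% and Rab3d at most 5.54%.

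The coding sequences of the 4 paralogs are shown around the G3 box, the motif before the switch II loop that contacts the gamma phosphate of GTP, because the shares above rest on reads that tell these similar genes apart. Each window holds 57 coding bases, 5′ to 3′ on the strand of the gene, with the 15 bases of the box in capitals, read from GENCODE vM21 transcripts on GRCm38. Every window is spliced, so its genome span includes an intron: Rab3a spans chr8:70756063-70756482 (plus), Rab3b chr4:108890515-108923941 (plus), Rab3c chr13:110181062-110260499 (minus) and Rab3d chr9:21914946-21915725 (minus).
Rab3a: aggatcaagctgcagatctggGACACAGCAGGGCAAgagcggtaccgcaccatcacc
Rab3b: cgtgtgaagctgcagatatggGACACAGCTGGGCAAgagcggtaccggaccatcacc
Rab3c: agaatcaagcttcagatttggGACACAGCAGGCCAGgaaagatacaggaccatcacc
Rab3d: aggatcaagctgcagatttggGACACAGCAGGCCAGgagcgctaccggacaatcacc
The 2 leading paralogs, Rab3a and Rab3c, differ at 10 of the 57 bases and at 2 bases of the box. Rab3c and Rab3d have the same box, base for base, and differ at 7 bases of the window. Over whole coding sequences, the longest identical run between any 2 Rab3 genes was 33 bases, shared by Rab3b and Rab3d, and that between Rab3a and Rab3c was 20 bases.

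The other members of the synaptic list were at or below the median gene without passing the test. Rab27b, which with Rab27a docks secretory granules, had 7.51, 1.95 and 2.88 CPM per kb and a level of -0.79 (SE 0.66, adjusted p = 0.932 by limma). Rab26, linked to synaptic vesicles and their removal by autophagy, had 2.56, 3.29 and 3.60 CPM per kb, one of the narrowest spreads in the family. Rab27a had 4, 279 and 5 counts, so it exceeded Rab27b per kb only in replicate 2, with 61.7% of the pair. Rab37, known from mast cell granules, was the lowest of the list, with 34 counts in replicate 2 and 0 in the others. A count of 0 allows up to 3 counts, or 0.707, 0.131 and 0.257 CPM in replicates 1 to 3, for counting error only.

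Of the early endosome members, all 6 were detected and tested, and 0 were above the median gene by limma's TREAT test. Rab5 drives the fusion of endocytic vesicles with early endosomes, and its 3 genes changed rank from library to library. Rab5b had 41.6, 19.0 and 13.1 CPM per kb, the highest mean of the list, at a level of 1.85 (SE 0.51, adjusted p = 0.219 by limma). Rab5c had 1.18, 22.4 and 9.98 CPM per kb and was low in replicate 1 alone. Rab5a had 0.671, 3.84 and 17.3 CPM per kb and was highest in replicate 3. Rab5b therefore held 95.7% of the Rab5 message per kb in replicate 1, Rab5c led with 49.5% in replicate 2, and Rab5a led with 42.9% in replicate 3. No order of the 3 paralogs held in all libraries. The integrin-trafficking gene Rab21 was steadier, at 13.4, 28.6 and 12.4 CPM per kb, and its level passed the test without replicate 1 (2.08, adjusted p = 0.0343 by limma). Rab22a had 10.6, 3.12 and 1.89 CPM per kb, while Rab31, its paralog between Golgi and endosomes, ran the other way with 0.557, 4.80 and 8.77 and was the lowest of the list.

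Recycling endosome genes were led by Rab11b, the brain-enriched paralog of the Rab11 pair that returns receptors to the surface. It had 39.6, 62.8 and 27.6 CPM per kb (43.3 ± 17.9, SD, n = 3) and a level of 2.76 (SE 0.44, adjusted p = 0.00277 by limma). Rab11a followed at 14.0, 10.2 and 5.26 CPM per kb, below Rab11b in 3 of 3 libraries by 2.16 on the log2 scale (SD 0.59). Of the 50-base words of the Rab11b coding transcript, 14.0% also occur, on either strand, in transcripts of other genes. These include the pseudogene Rab11b-ps2, so part of the Rab11b reads may have been left out as aligned to several places. They also include Gm17251, which overlaps Rab11b on the other strand, and the share due to other loci alone was not computed. Rab15, a neuronal member that slows recycling, had 11.6, 15 and 4.17 CPM per kb, and Rab35, of the fast recycling route, 5.18, 4.83 and 2.15. Rab4a, also of fast recycling, had 4, 261 and 41 counts and Rab4b 0, 70 and 0, so neither was tested. Of the exon bases of Rab4b, 65% overlap Gm21983 or Mir3101 on the same strand, so its counts are uncertain. Rab14, which works between Golgi and endosomes, has the longest union of exons of the family (13.6 kb), but its longest transcript has 5003 bases. It reached 0.434, 1.34 and 1.10 CPM per kb, a level of -2.79 (adjusted p = 0.115 by limma). That level depended on the length used, at -1.80 with the longest transcript and -1.36 without division by length. The epithelial members Rab17 and Rab25 had 0 counts in all 3 libraries and were the lowest of the list, in an order set by exon length alone.

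Late endosome and lysosome genes were all detected, and Rab7 stood first among them. Rab7 (chr6:87999106-88045270, minus strand) directs late endosomes and autophagosomes to lysosomes and their transport along axons. It had 287, 356 and 131 CPM per kb (258 ± 115, SD, n = 3), a level of 5.30 (SE 0.44, adjusted p = 2.38e-08 by limma). Of the 50-base words of its coding transcript, 16.2% also occur in transcripts of other genes. These are Rab7-ps1 and Gm5577, of which Gm5577 overlaps Rab7 on the other strand. Rab9b and Rab9, which return receptors from late endosomes to the Golgi, had 11.97, 42.4 and 28.7 and 4.31, 18.6 and 19.3 CPM per kb. Rab9b exceeded Rab9 in 3 of 3 libraries, by 1.06 on the log2 scale (SD 0.45). Rab12, which sends receptors to lysosomes, had 5.99, 43.0 and 12.2 CPM per kb and so was high in replicate 2. Neither Rab9b (level 2.02, adjusted p = 0.132) nor Rab12 (1.28, adjusted p = 0.688) passed limma's TREAT test, but both did without replicate 1, at 2.97 (adjusted p = 1.45e-05) and 2.36 (adjusted p = 0.0110).

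The endoplasmic reticulum and Golgi list held both the highest Rab gene and several of the scarcest. Rab2a, which acts between the endoplasmic reticulum and Golgi and in dense-core vesicle formation, had 232, 543 and 315 CPM per kb (364 ± 161, SD, n = 3). Its level of 5.82 (SE 0.43, adjusted p = 5.15e-09 by limma) gave it rank 21 of the 8141 tested genes, and it lies at chr4:8535644-8607778 on the plus strand. Rab2b had 34.9, 22.6 and 20.8 CPM per kb, a level of 2.08 that missed the threshold (adjusted p = 0.0955 by limma) and passed it without replicate 1 (2.29, adjusted p = 0.0110). Rab2a thus held 86.9 to 96.0% of the Rab2 message per kb. Of the exon bases of Rab2b, 64.0% overlap Tox4 or Gm43766 on the other strand, and whether the counting used strand is not given in the sources used here, so its level is uncertain. Rab1 (Rab1a in the annotation), which carries vesicles from the endoplasmic reticulum to the Golgi, had 23.5, 66.8 and 35.8 CPM per kb and a level of 2.67 (SE 0.46, adjusted p = 0.00742 by limma). Its paralog Rab1b had 3, 175 and 0 counts.

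The Rab6 paralogs, which serve retrograde traffic to and from the Golgi, were both high and close to each other. Rab6b, the paralog known as enriched in neurons, had 225, 194 and 188 CPM per kb (202 ± 19.8, SD, n = 3), a level of 5.06 (SE 0.44, adjusted p = 5.56e-08 by limma). Rab6a, found in most tissues, had 154, 218 and 161 CPM per kb (178 ± 35.1), a level of 4.87 (SE 0.42, adjusted p = 7.83e-08 by limma). Rab6a minus Rab6b was -0.54, 0.17 and -0.23 on the log2 scale, a mean of -0.20 with SD 0.36, so the pair did not differ beyond its spread. Mrpl48 overlaps 19.0% of the exon bases of Rab6a on the other strand, and no annotated gene overlaps the exons of Rab6b.

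The same 57-base window around the G3 box, with the box in capitals, is given for this pair because both members stand among the 4 highest Rab genes at nearly equal levels. Rab6a spans chr7:100628455-100629891 and Rab6b chr9:103160871-103161117, both on the plus strand of GRCm38 and both across an intron.
Rab6a: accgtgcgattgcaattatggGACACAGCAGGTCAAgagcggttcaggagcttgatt
Rab6b: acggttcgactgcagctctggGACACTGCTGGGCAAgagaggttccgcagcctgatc
They differ at 14 bases of the window and 3 of the box, more than any pair of Rab3 genes in the window, and the longest identical run of their coding sequences is 14 bases. The box was searched for only as the exact residues DTAGQ, in 56 members (Rab18 and Rab27b were left out), and 47 hold it in one of 35 codings. The 9 without this exact form are Rab20, Rab24, Rab25, Rab28, Rab29, Rab32, Rab38, Rab40b and Rab40c. Variants of the box were not searched for, so these genes cannot be said to lack it. Of them, Rab20, Rab25 and Rab38 had 0 counts in every library.

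Other Golgi members were near or below the median gene. Rab43 had 6.10, 1.501 and 5.45 CPM per kb, but 75.4% of its exon bases lie within the same-strand model Gm45140. Rab33b, which links the Golgi to autophagy, had 1.87, 8.46 and 2.85 CPM per kb, while its paralog Rab33a had 0, 190 and 22 counts. Rab34, which acts on Golgi position and ciliary traffic, had 0.791, 1.19 and 0.825 CPM per kb, a level of -2.61 just short of the threshold (adjusted p = 0.0567 by limma), and it was called below the median gene without replicate 2 (-2.77, adjusted p = 0.00635 by limma) and without division by length (-3.70, adjusted p = 0.00110). Rab30 had 0.122, 1.41 and 2.48 CPM per kb. Rab29, the Golgi recruiter of the kinase Lrrk2, was the lowest of the list with 0, 70 and 0 counts.

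Of the 5 genes for traffic from the Golgi to the plasma membrane and cilium, Rab10 was above the median gene. Rab10, of exocytosis and dendrite and axon growth, had 19.7, 56.5 and 45.7 CPM per kb (40.6 ± 18.9, SD, n = 3), a level of 2.62 (SE 0.47, adjusted p = 0.0103 by limma). That call was lost when replicate 2 (2.27, adjusted p = 0.236) or replicate 3 (2.62, adjusted p = 0.0772) was left out and with other length scales. Rab8b, of surface delivery and cilia, had 16.2, 18.1 and 28.2 CPM per kb and exceeded Rab8a in 3 of 3 libraries, by 5.66 on the log2 scale (SD 1.68), although Rab8a in replicate 1 rests on 1 count. The level of Rab8b, 1.75 (adjusted p = 0.261 by limma), passed without replicate 1 (2.34, adjusted p = 0.00599). Rab23, a regulator of hedgehog signalling at the cilium, had 1.28, 4.19 and 1.81 CPM per kb. Rab13, of epithelial junctions, was the lowest of the list with 0, 1 and 2 counts.

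Lysosome-related organelle genes were scarce in these libraries. Rab32 and Rab38 act together in melanosome formation. Rab32 had 0, 57 and 13 counts, and Rab38 had 0 in every library.

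Members with other or less settled roles included 0 genes above the median by limma's TREAT test with all 3 libraries. Rab39b, a neuronal gene of glutamate receptor traffic, had 16.2, 36.6 and 13.8 CPM per kb, a level of 1.74 (adjusted p = 0.309 by limma), which passed without replicate 1 (2.33, adjusted p = 0.0109), and it held 91.5 to 100% of the Rab39 pair. Rab39 itself had 19 counts in replicate 1 and 0 elsewhere. Rab40b and Rab40c, which work as adaptors of ubiquitin ligases, had 4.58, 33.5 and 8.31 and 4.19, 4.15 and 9.29 CPM per kb. Rab40c exceeded Rab40b only in replicate 3, so neither paralog led throughout. Rab18, of lipid droplets and the endoplasmic reticulum, had 0.964, 17.1 and 9.41 CPM per kb, and Rab24, of autophagy, 0.702, 10.4 and 11. Both were low in replicate 1 alone, and 62.4% of the exon bases of Rab24 overlap Prelid1 on the other strand. Rab28 had 2, 363 and 489 counts, Rab36 0, 218 and 40, Rab19 0, 0 and 8, and Rab42 0, 1 and 0. Rab20 and Rab44 were at 0 in every library. Rab44 had the lowest computed level of all members, but the order among members at 0 in every library comes only from exon length and the prior count.

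Across subfamilies with lettered members, 1 paralog usually held most of the message. Rab1 held 95.2 to 100% of its pair, Rab8b 96.4 to 99.7%, Rab4a 80.7 to 100% and Rab11b 73.9 to 86.0%. The Rab4a share rests on the uncertain counts of Rab4b. Rab9b held 59.8 to 73.5% and Rab33b 54.2 to 100%. The leader changed between libraries in Rab3, Rab5, Rab6, Rab27 and Rab40, and in Rab3 and Rab6 the leading pair differed by less than 1 on the log2 scale in each library.

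**Figure D2:**
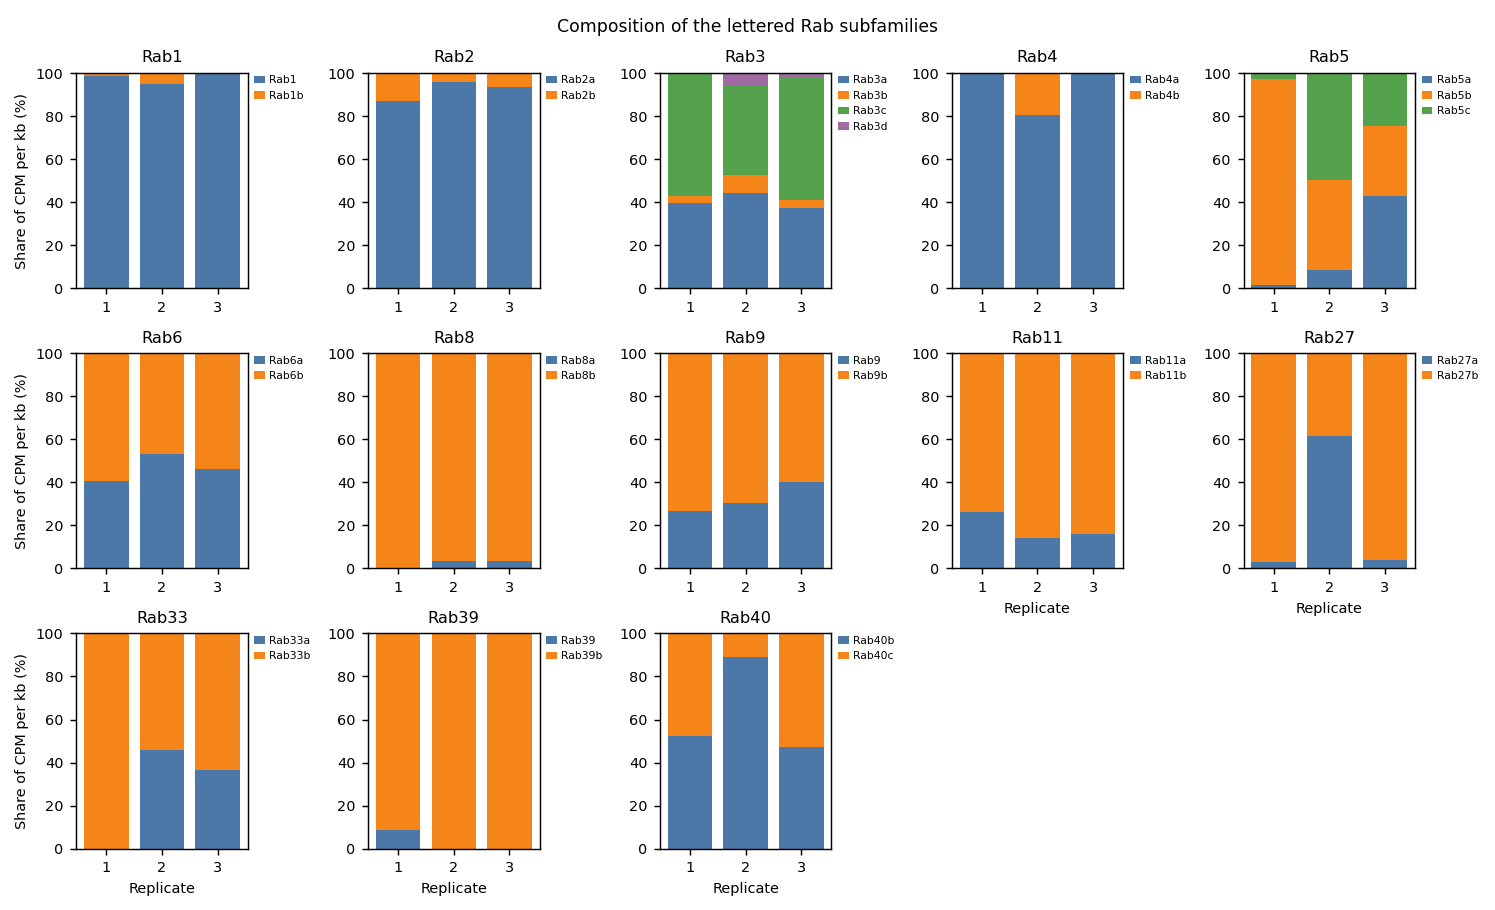
Share of each paralog in the summed CPM per kb of its subfamily (%, stacked to 100) in replicates 1 to 3, for 13 subfamilies. Rab5 changed leader in each library, from Rab5b at 95.7% to Rab5c at 49.5% and Rab5a at 42.9%, whereas Rab8b held at least 96.4% of its pair throughout.

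The rank of single genes depended in part on exon length. The 5 members with the highest mean CPM were Rab6b, Rab3c, Rab2a, Rab7 and Rab6a, and together they held 74.1, 63.4 and 66.3% of all Rab counts in replicates 1 to 3. Exon lengths ran from 0.761 to 13.6 kb over the members, with a median of 3.52 kb, against 5.59 kb over all tested genes. Rab3c ranked 2 by mean CPM (938 ± 646) and 5 per kb. Rab2a ranked 3 by mean CPM (775 ± 343) and 1 per kb.

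**Figure D3:**
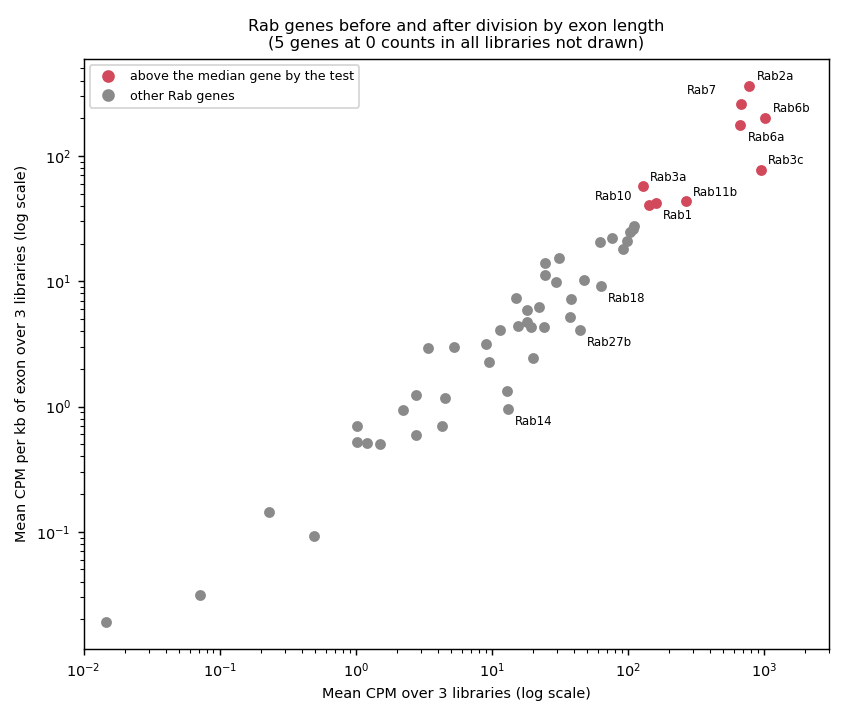
Mean CPM (x axis, log scale) against mean CPM per kb of exon (y axis, log scale) of each Rab gene over 3 libraries, with genes above the median gene by limma's TREAT test in red. Rab3c (12049 bases of exon) and Rab14 (13.6 kb) lie low on the y axis for their CPM.

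As lists, the synaptic genes had a lower median than the joined endosomal genes in every library, but not than each endosomal list. The place of the Golgi genes depended on the library or the summary. The median level over all 8 synaptic genes was -0.32, -0.69 and -0.93 in replicates 1 to 3 (-0.65 ± 0.30, SD, n = 3). Over the 19 endosomal genes (early, recycling and late together) it was -0.08, 0.68 and 0.51 (0.37 ± 0.40), and over the 12 endoplasmic reticulum and Golgi genes -0.70, 0.30 and -0.63 (-0.34 ± 0.56). The synaptic median was below the endosomal in 3 of 3 libraries, by 0.24, 1.37 and 1.44 (mean difference -1.02, SD 0.67). That sign was kept under each of the alternatives run, with a mean difference of -0.50 without division by length. It did not hold for each endosomal list alone. The recycling list was at -3.15, -0.39 and -1.57, below the synaptic list in replicates 1 and 3. The early endosome list was at -0.60, 0.59 and 0.85, below the synaptic list in replicate 1, and the late list at 0.62, 2.74 and 1.93. The endosomal median was above the Golgi median in 3 of 3 libraries, by 0.61, 0.38 and 1.15, but a mean over members in place of the median turned that difference from 0.71 to -0.65. The synaptic minus Golgi difference was 0.37, -0.99 and -0.29, with no common sign. Over all members of a list, late endosome genes had the highest median (1.76 ± 1.07) and lysosome-related genes the lowest (-5.04 ± 0.96). That order depends on how many undetected genes a list holds. Over tested members only, the median was 2.08 for the endoplasmic reticulum and Golgi list. It was 1.75 for the Golgi to plasma membrane and cilium list and 1.65 for the late endosome list. The lysosome-related value rests on Rab32 and Rab38, both at 0 counts in replicate 1, and so on the prior count. All members of the early and late endosome lists were found in every library, while every other list held genes at 0 counts in at least 1. These medians are descriptions without a test, since the members of a list are not replicates.

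Nearly all tested members differed between the libraries beyond counting noise, as did genes at large. By a Poisson chi-square test against the scaled library sizes, 35 of 37 members varied, where 97.4% of all 8510 genes past the filter did. The exceptions were Rab26 (adjusted p = 0.238) and Rab34 (adjusted p = 0.223), both of low count. The median range between the highest and lowest library was 1.60 on the log2 scale for members and 1.84 for all genes. A range above 8-fold was found for 6 of 37 members (16.2%), where 21.6% of all genes had one. Those were Rab5a (4.63 on the log2 scale), Rab30 (4.18), Rab5c (4.16), Rab18 (4.12), Rab31 (3.88) and Rab24 (3.83), and all 6 were lowest in replicate 1. At the other end, Rab6b varied least, with 1132, 974 and 948 CPM, a range of 0.26, and Rab6a had a range of 0.50.

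**Figure D4:**
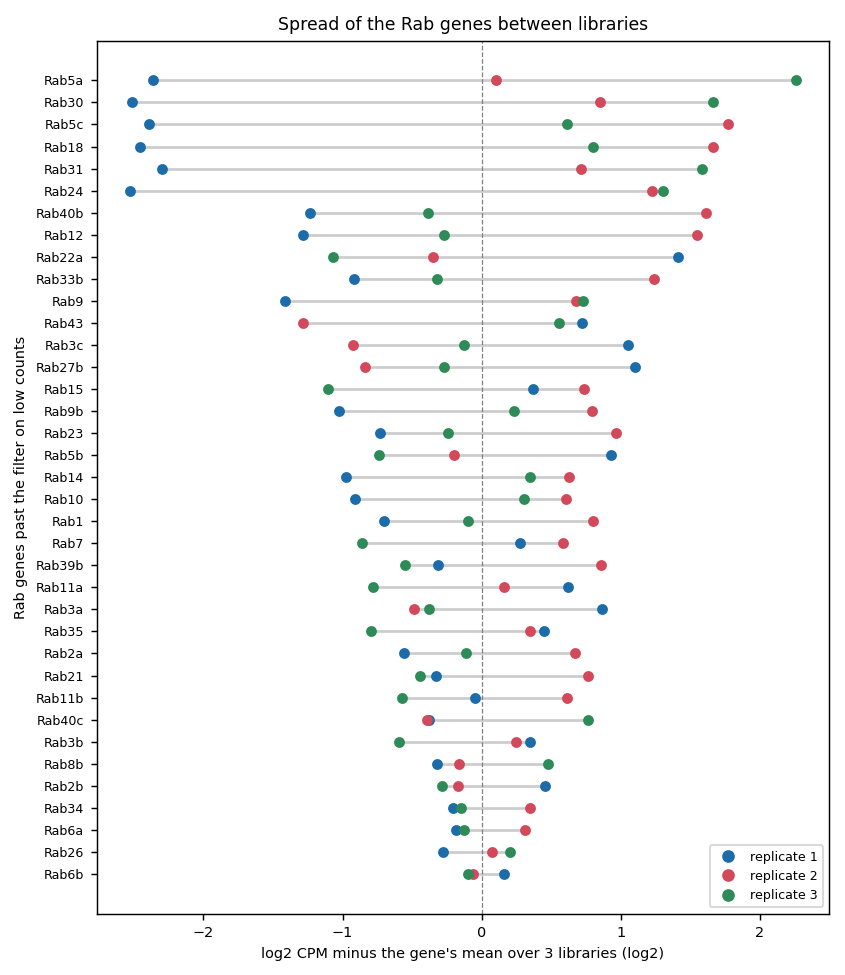
Log2 CPM of each of the 37 tested Rab genes in replicates 1 to 3, as the difference from the gene's own mean, ordered by the range between libraries (grey bars). Rab5a spans 4.63 and Rab6b 0.26 on the log2 scale, and the 6 widest genes all have their lowest point in replicate 1.

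Members were most often lowest in replicate 1, 20 of 37 (54.1%), where 42.2% of all genes past the filter were. They were most often highest in replicate 2, 18 of 37 (48.6%, against 30.5% of all genes). In the synaptic list, 4 of the 5 tested genes (Rab3a, Rab3b, Rab3c and Rab27b) were highest in replicate 1, where 37.6% of all genes past the filter were. The untested synaptic genes, Rab3d (0, 447 and 106 counts), Rab27a (4, 279 and 5) and Rab37 (0, 34 and 0), were highest in replicate 2. The filter drops genes with few counts in replicate 1, so the tested part of the list is selected in that respect. Whether the synaptic list differs from the other members was not tested. Beside this, the granule cell markers summed to 1790, 2010 and 1030 CPM, the neuronal markers to 8580, 14800 and 10800, the astrocyte markers to 3080, 1390 and 3270, and the endothelial and mural markers to 465, 1020 and 424. Of the latter, Cldn5 and Pecam1 were at 0 in replicate 1. Rgs5 alone gave 370, 747 and 67.2 CPM of that sum, and Flt1, Tek and Slco1a4 were highest in replicate 3. Snap25 alone gave 5316, 10870 and 5338 CPM of the neuronal sum. Of the other neuronal markers, Rbfox3 was highest in replicate 1 and Syt1 and Stmn2 in replicate 2. Tubb3, Nefl, Nefm and Map2 were highest in replicate 3. The part of depth or of cell composition in these differences was not tested.

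Most tested partners of the Rab cycle were called neither above nor below the median gene. That does not place them near it, as genes such as Rab11fip1 (-3.12) and Fyco1 (1.88) were not called. Of 119 partner genes with a row, 86 were tested, and by limma's TREAT test 5 were above the median gene and 3 below, where 10.5% and 4.20% of all tested genes were, with a median level of -0.39. Gdi2, a widely expressed GDP dissociation inhibitor, had 25, 2940 and 755 counts and a level of -0.79 (adjusted p = 0.929 by limma). Chm, the escort protein for prenylation, was at 0.31 and Rabggta, a subunit of the prenylating enzyme, had 1, 38 and 11 counts.

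Synaptic effectors held the highest partner genes. Syn1, the vesicle protein synapsin 1, had 1081, 520.5 and 482 CPM per kb and a level of 6.75 (SE 0.49, adjusted p = 2.17e-09 by limma). Rph3a, the Rab3 and Rab27 effector rabphilin, had 235, 139 and 119 CPM per kb, a level of 4.70 (SE 0.44, adjusted p = 2.41e-07 by limma). Like Rab3a and Rab3c, both were highest in replicate 1. Rims1, the active zone effector RIM1, had 38.3, 12.9 and 11.2 CPM per kb (level 1.55, adjusted p = 0.398) and Rims2 3.40, 11.2 and 15.6 (0.48, adjusted p = 0.995), by limma. Rims3 had 0, 0 and 7 counts. Rims4 had 0 in every library, as had Sytl1 and Unc13d of the same list, and its lowest computed level rests on exon length. Rph3al, a rabphilin-like protein of endocrine granules, was below the median gene at -3.03 (adjusted p = 0.0283 by limma). With 2 genes above, 1 below and 5 neither, the tested synaptic effectors had a median level of 0.81. Of all tested genes, 10.5% were above and 4.20% below.

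Endosomal effectors had 2 of 18 tested genes above the median gene and 0 below by limma's TREAT test, with a median level of 0.59. Of all tested genes 10.5% were above, a share near that of this list, and 4.20% below. Rab11fip2, an effector of Rab11, had 55.5, 29.2 and 16 CPM per kb, a level of 2.30 (adjusted p = 0.0365 by limma). Rabep1, the Rab5 effector rabaptin, had 24.5, 25.4 and 33.8 CPM per kb, a level of 2.20 (adjusted p = 0.0407 by limma). Rilp, the Rab7 effector that recruits dynein, had 0 counts in all libraries beside the high Rab7. Of 11 tested Golgi effectors, 0 passed in either direction, and Bicd2 (1.78) and Tmf1 (1.08) were highest and Micall2, at 0, 5 and 0 counts, lowest.

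Exchange factors and GTPase-activating proteins had low medians, -0.70 and -0.98. By limma's TREAT test 0 genes were above in either list, where 10.5% of all tested genes were. The highest exchange factors were Dennd5a (1.75) and Madd (1.42), the Rab3 and Rab27 exchange factor, and the lowest was Dennd2c, with 0, 13 and 0 counts. Rin2, an exchange factor of Rab5, was below the median gene at -3.66 (adjusted p = 0.0122 by limma). Of the GTPase-activating proteins, Rabgap1l (1.84) and Tbc1d30 (1.15) were highest, Tbc1d2b was below the median gene at -3.70 (adjusted p = 0.00774 by limma), and Tbc1d2 was lowest with 1, 15 and 0 counts. Of the kinases that phosphorylate Rab proteins, Lrrk2 lay at -0.87 (adjusted p = 0.904 by limma) and Lrrk1 had 2, 80 and 3 counts.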

How the data were processed

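The deposited files hold raw read counts per gene symbol, 1 file for each of 3 libraries, not normalised or pooled. Alignment with STAR 2.0.0e to mm10 and counting with HTSeq are named in the submitters' processing notes. The annotation and strand setting are not given in the sources used here. Summary rows were left out. Reads aligned to several places were 24.8 to 37.5% of those listed and were not on genes, which lowers genes with near-identical copies.

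Counts were scaled by TMM and filtered with filterByExpr in edgeR 4.0.16 (R 4.3.3), which kept 8510 genes. Of these, 8141 had an exon length in GENCODE vM21 on GRCm38 (union of exons, 23848 of 32531 symbols matched, all 58 members among them). Log2 CPM with a prior count of 2, per kb and minus the library's median tested gene, was tested with limma 3.58.1 (trend, TREAT, log2 threshold 1, 1 group, all 3 libraries), with Benjamini-Hochberg adjustment over all tested genes and a threshold of 0.05. The variances were moderated across genes by limma, so an SE is not the spread of that gene alone. Rab26 had an SD of 0.16 over the libraries and an SE of 0.84, and Rab5a an SD of 2.24 and an SE of 0.86. A Poisson chi-square test compared the libraries against counting noise. The limits given for 0 counts hold for counting error alone, as reads copied by PCR do not stand for separate molecules. Tests were checked on simulated counts. These had the same extra spread for every gene in the level test and counting noise alone in the variation test. The check therefore does not cover the gene-by-gene spread of these libraries. The alternatives tried were no filter, scaling by DESeq2 1.42.0, prior count 0.5, other length scales, equal depth, a library size without ribosomal protein and mitochondrial-encoded genes, other list summaries and each replicate left out.

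Genes are named by rule: all of Rab3, the top 3 and the bottom member of every list, every called member, the 6 with the largest range at a mean of at least 10 CPM, every member with a 0, the leading and lowest paralogs, the 2 highest and the lowest of each partner list, and all Gdi and Rims genes; some results this rule calls for are not reported here. Further members were named after their values were seen. Members, lists and tests were chosen with earlier results of these data known. Figures were drawn with matplotlib 3.10.9.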

Additional observations from a re-analysis of the deposited data

How the results depend on the processing

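No member changed the sign of a called level under any alternative. DESeq2 size factors, a prior count of 0.5 and a library size without ribosomal protein and mitochondrial-encoded genes changed no call of a member. With no filter, which moves the median gene to one near 0 counts, 31 members were above and 2 below, and 60 partner genes above and 8 below, where 25.8% of all genes were above and 18.0% below. Without division by length 1 member (Rab34) was below and 12 partner genes above, where 5.22% of all genes were below and 14.1% above. With longest transcripts 1 member (Rab30) was below, where 4.10% of all genes were. At equal depth 1 member (Rab14) was below and 3 partner genes above, where 3.93% of all genes were below and 9.58% above. Leaving out each replicate in turn gave 6 to 15 members above and 0 to 1 below, and 2 to 8 partner genes above and 0 to 3 below. In those settings 7.67 to 14.8% of all genes were above and 2.78 to 5.86% below. Rab1 (2.22, adjusted p = 0.254 by limma) and Rab11b (2.41, adjusted p = 0.110 by limma) lost their calls without replicate 2. Varying members numbered 49 of 53 with no filter, where 86.4% of all genes varied. Under the other alternatives they numbered between 30 and 39, where 84.7 to 97.3% of all genes varied.

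The synaptic median (-0.65) was -0.32 without replicate 1. The endosomal median (0.37) turned to -0.51 without division by length and -0.40 as a mean, and was 1.09 without replicate 1 and 0.13 without replicate 2. The Golgi median (-0.34) turned to 0.25 as a mean and 0.33 without replicate 1 (-0.75 to 0.33 over the replicates left out). The synaptic minus endosomal difference ran from -1.41 to -0.50 over the alternatives and -1.41 to -0.81 with a replicate left out. The synaptic minus Golgi difference was 0.04 with longest transcripts, -1.29 as means and -0.64 to 0.04 with a replicate left out. The endosomal minus Golgi difference was 0.09 without division by length, -0.65 as means and 0.50 to 0.88 with a replicate left out. The Rab3c share was 83.6% without division by length and 49.2 to 57% with a replicate left out. For these list values the cause was not tested. Scarce members could be read least in replicate 1, which had 15 Rab genes at 0 counts against 7 and 11, and against 8 and 11 at equal depth. No paired analysis was possible because there is only 1 group.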

Other observations

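Among the partners of the Rab cycle, several genes chosen after their values were seen varied more between libraries than the Rab genes they act on. Ccz1, a subunit of the exchange factor of Rab7, had 6, 212 and 1051 counts in replicates 1 to 3, a range of 5.84 on the log2 scale, while Rab7 itself had a range of 1.44. Uso1, the Rab1 effector that tethers vesicles to the Golgi, had 12, 2020 and 797 counts (range 4.89), beside a range of 1.51 for Rab1. Tbc1d23, a Golgi protein with a TBC domain, ran the other way with 738, 144 and 112 counts (range 4.76). Rabif, a chaperone of Rab proteins, had 0, 993 and 560 counts and was not tested. Of the 86 tested partner genes, 84 varied beyond counting noise, a share near that of all genes.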
